A study of Homo sapiens with 3 samples.

Results

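The genes described here carry glucose into the cell, break it down to pyruvate, turn pyruvate into lactate and export it, or build and break down glycogen. They were the rows of the deposited gene table with 31 listed symbols, together with the pyruvate kinase gene PKM, which the table writes under its older symbol PKM2. All 32 were found among the 21572 genes of the table. In glycolysis, hexokinases trap glucose as glucose 6-phosphate, phosphofructokinase commits it to breakdown, and a chain of enzymes turns the resulting trioses into pyruvate and ATP. Most steps are encoded by several isoform genes whose use differs between tissues: the adult hepatocyte relies on SLC2A2, PKLR, GYS2 and PYGL among others, while many tumours and oxygen-poor cells use SLC2A1, HK2, ALDOA, PKM, LDHA and SLC16A3. Many of these genes are known targets of the hypoxia-inducible factors.

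Hep-G2, an established cell line from a human hepatoma, was the source of all 3 RNA libraries, each at passage 21. One library came from cells with the FTO hairpin TRCN0000246247 (sh#7) and another from cells with the FTO hairpin TRCN0000255402 (sh#2). The control library came from cells with the hairpin SHC002, which the series' design calls a scramble. The design states that FTO, an RNA demethylase gene, is knocked down more efficiently in sh#7 than in sh#2, and all 3 cultures carry a hairpin. Each group held 1 library, and whether a line is a clone or a pool is not given in its labels. No difference below therefore has a replicate check, and the effect of a hairpin, of FTO and of a culture cannot be told apart. Values are FPKM, fragments scaled to transcript length and to the mapped total. In bulk RNA of this kind, fewer cells of a type and less RNA per cell cannot be told apart.

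FTO was at 2.55 FPKM in sh#7, 5.29 FPKM in sh#2 and 9.02 FPKM in the control, in the order that the design gives. Low values of the table put the depth at about 44.8 M fragments in sh#7, 45.8 M in sh#2 and 44.9 M in the control. All 11 hepatocyte and hepatoma markers were found. Their summed level was 10645 FPKM in sh#7, 17400.1 FPKM in sh#2 and 22479.5 FPKM in the control. This sum, like that of the genes below, was lowest in sh#7 and highest in the control. Single markers did not all follow that order. AFP, APOA2, TTR, SERPINA1 and TF followed it, while ALB, APOA1, APOB and HNF4A were highest in sh#2. FOXA2 and GPC3 were lowest in sh#2. Of the 5 blood and immune markers, PTPRC, CD3E and HBB were listed at 0 in all 3 libraries, and the summed level of the list, almost all of it CD68, was 24.0 FPKM in sh#7, 31.4 FPKM in sh#2 and 40.2 FPKM in the control. Of the 6 fibroblast and stellate cell markers, COL1A2, COL3A1 and DCN were listed at 0, and the sum, almost all of it ACTA2, was 52.7 FPKM in sh#7, 35.4 FPKM in sh#2 and 43.9 FPKM in the control. None of the 4 endothelial markers reached a mean of 1 FPKM, KDR was listed at 0, and their sum was 0.0567 FPKM in sh#7, 0.196 FPKM in sh#2 and 0.0852 FPKM in the control. The part of these markers in the results was not tested.

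Glycolysis and glycogen genes were mostly lower in the FTO hairpin lines than in the control, and by more in sh#7 than in sh#2. A gene was compared where its mean over the 3 libraries reached 1 FPKM, which held for 11069 genes and for 28 of the 32 genes described here. A difference is always taken on the log2(FPKM + 1) scale, as the first named library minus the second, and 2-fold means 1 unit of it; low genes come out closer together than their plain ratio. In sh#7 against the control, 8 of 28 genes were at least 2-fold lower, against 2.48% of all compared genes. These were SLC2A1, HK2, PFKFB4, ALDOC, PGK1, LDHA, PDK1 and GBE1. At 1.5-fold the count was 15 of 28, against 6.18% of all compared genes. These 15 include HK1, which was above 1 FPKM only in the control. None of the 28 was at least 2-fold higher, against 2.35% of all compared genes, and none was 1.5-fold higher, against 9.61%. The median difference of the 28 genes was -0.72, where the median of all compared genes was 0.16, which puts the 28 at -0.87 relative to all. Over all genes 260 higher and 275 lower passed 2-fold as deposited, and 194 higher and 373 lower after median-of-ratios scaling, which brings the median of all genes close to 0.

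In sh#2 against the same control library, none of the 28 genes was 2-fold lower, against 0.723% of all compared genes, and none was 2-fold higher, against 0.506%. Over all genes 56 higher and 80 lower passed 2-fold as deposited, and 47 higher and 106 lower after median-of-ratios scaling. SLC2A1, HK2, PGK1 and PDK1 were at least 1.5-fold lower, which is 4 of 28, against 2.72% of all compared genes, and none was 1.5-fold higher, against 2.67%. The median difference was -0.36 for the 28 genes and 0.10 for all, so the 28 lay at -0.46 relative to all. Counting any size of difference, 24 of 28 genes were lower than the control in sh#7, against 32.8% of all compared genes. In sh#2 26 of 28 were lower, also against 32.8%. Both shares are of the values as deposited, where the median of all compared genes was 0.16 in sh#7 and 0.10 in sh#2. Scaling that moves this median would change the shares, and they were not taken after scaling. Both comparisons use the same control library, so a deviation of that library enters both.

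**Figure D1:**
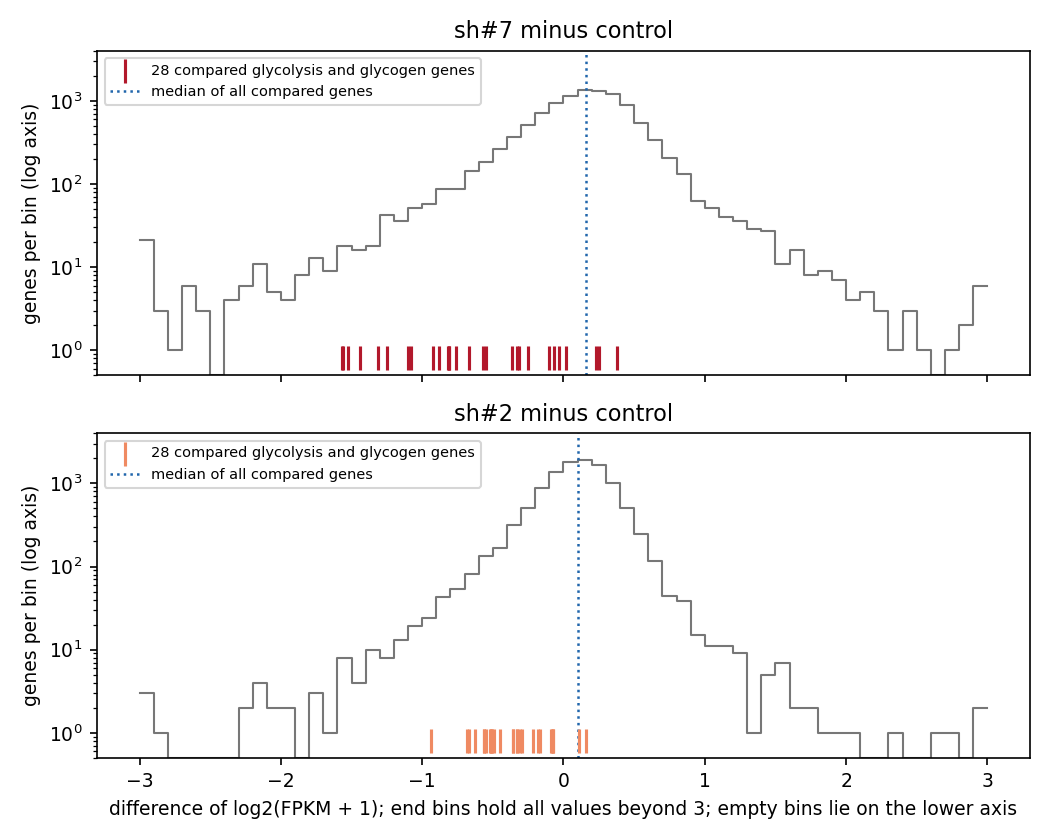
Number of genes (log axis) by difference of log2(FPKM + 1), for sh#7 minus control (top) and sh#2 minus control (bottom), with the 28 compared glycolysis and glycogen genes as ticks and the median of all 11069 compared genes as a dotted line. The ticks lie mostly left of the dotted line, spanning -1.57 to 0.38 for sh#7 and -0.94 to 0.16 for sh#2.

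Summed over all 32 genes, the level was 8322 FPKM in sh#7, 10654 FPKM in sh#2 and 13454 FPKM in the control. This sum made up 1.57% of all FPKM in sh#7, 1.92% in sh#2 and 2.38% in the control, a share that a common factor on a library would not change. The sum is carried by GAPDH, ENO1, ALDOA, LDHA and PKM2, and so says little about the low genes. By step, the sum in sh#7 was lowest against the control for pyruvate fate (LDHA, LDHB and PDK1), at 41.9%, and closest to it for the phosphofructokinases, at 96.9%. The pyruvate fate sum was almost all LDHA, with LDHB listed at 0, and the phosphofructokinase sum was mostly PFKL. These step values therefore mainly describe single genes. In sh#2 pyruvate fate was again lowest, at 70.1% of the control, while the lactate transporters were closest to it, at 93.2%. The remaining steps lay between 58.7% and 67.6% of the control in sh#7 and between 75.7% and 84.6% in sh#2.

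**Figure D2:**
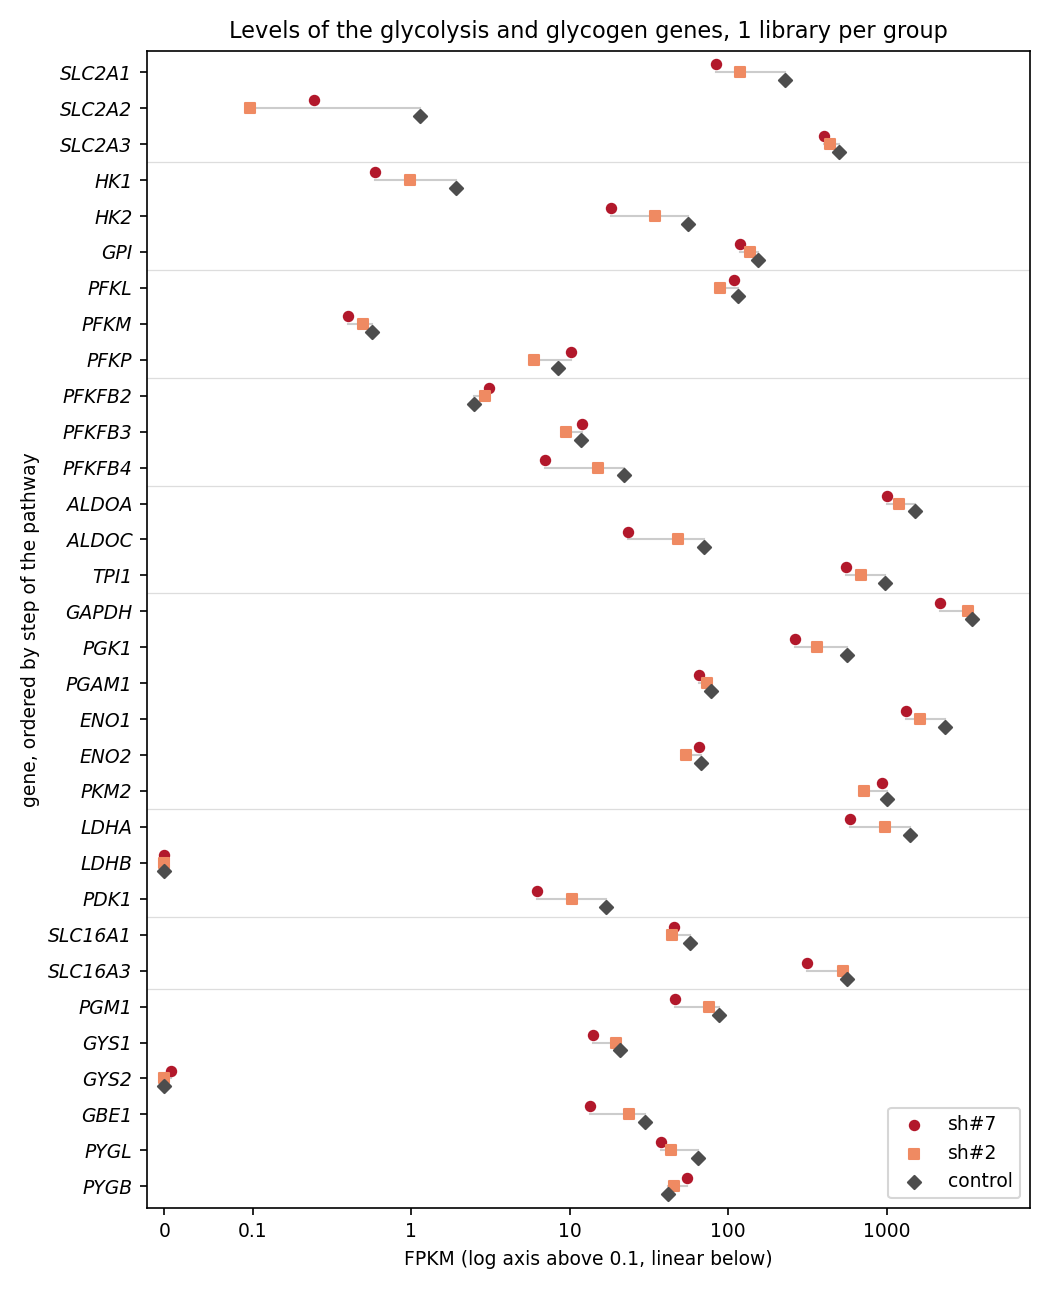
FPKM of the 32 genes in sh#7 (circles), sh#2 (squares) and control (diamonds), ordered by step of the pathway, on an axis that is logarithmic above 0.1 and linear below. Levels run from 0 for LDHB to 3457 FPKM for GAPDH in the control, and in most rows the control lies furthest right.

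Promoter sequences are shown for 5 of the 8 genes that were at least 2-fold lower in sh#7 and for 3 genes that were not, chosen with these results known. They are the 250 bases before the RefSeq start site on GRCh38.p14 nearest to the start of the GENCODE 29 principal transcript, from 5′ to 3′ on the strand of the gene. Capitals mark ACGTG and GCGTG on either strand (CACGT and CACGC when read on the other strand), the core that hypoxia-inducible factors are known to bind. The sequence CACGTG, known to be bound by MYC and the glucose-responsive factor ChREBP, holds ACGTG on both strands and so counts as 2 matches. ALDOC, LDHA, PGK1, HK2 and SLC2A1 were lower in sh#7:
ALDOC: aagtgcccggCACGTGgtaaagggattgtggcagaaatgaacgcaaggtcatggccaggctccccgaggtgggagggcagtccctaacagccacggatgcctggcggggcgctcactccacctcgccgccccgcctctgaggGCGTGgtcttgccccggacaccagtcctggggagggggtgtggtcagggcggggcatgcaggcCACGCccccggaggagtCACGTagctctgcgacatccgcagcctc
LDHA: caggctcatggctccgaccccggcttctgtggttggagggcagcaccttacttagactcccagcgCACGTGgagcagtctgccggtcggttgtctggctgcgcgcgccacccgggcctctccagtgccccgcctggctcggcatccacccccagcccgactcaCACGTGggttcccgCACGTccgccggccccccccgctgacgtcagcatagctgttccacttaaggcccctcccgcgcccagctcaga
PGK1: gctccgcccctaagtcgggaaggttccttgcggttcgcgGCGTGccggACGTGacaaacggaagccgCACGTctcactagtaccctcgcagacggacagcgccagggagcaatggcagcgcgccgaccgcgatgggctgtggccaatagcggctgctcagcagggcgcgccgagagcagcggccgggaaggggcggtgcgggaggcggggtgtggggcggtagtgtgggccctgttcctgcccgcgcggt
HK2: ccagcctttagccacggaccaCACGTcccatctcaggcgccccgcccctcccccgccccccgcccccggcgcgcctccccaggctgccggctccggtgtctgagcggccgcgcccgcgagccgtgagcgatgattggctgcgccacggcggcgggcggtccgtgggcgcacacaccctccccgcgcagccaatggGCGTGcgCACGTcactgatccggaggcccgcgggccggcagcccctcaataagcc
SLC2A1: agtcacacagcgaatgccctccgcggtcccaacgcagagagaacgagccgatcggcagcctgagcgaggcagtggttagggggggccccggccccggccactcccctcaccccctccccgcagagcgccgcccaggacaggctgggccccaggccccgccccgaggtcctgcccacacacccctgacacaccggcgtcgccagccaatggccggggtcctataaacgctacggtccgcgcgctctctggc
PFKL, PKM and PYGB were within 1.5-fold of the control in sh#7:
PFKL: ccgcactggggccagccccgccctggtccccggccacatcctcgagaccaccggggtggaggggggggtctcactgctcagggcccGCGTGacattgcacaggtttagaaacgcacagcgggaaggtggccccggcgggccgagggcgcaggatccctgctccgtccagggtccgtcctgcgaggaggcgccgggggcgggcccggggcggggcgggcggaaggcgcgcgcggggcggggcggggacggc
PKM: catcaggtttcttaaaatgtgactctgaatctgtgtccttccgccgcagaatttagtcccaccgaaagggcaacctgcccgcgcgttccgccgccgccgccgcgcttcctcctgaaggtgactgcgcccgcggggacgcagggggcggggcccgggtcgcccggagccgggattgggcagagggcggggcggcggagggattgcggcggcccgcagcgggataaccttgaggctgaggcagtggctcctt
PYGB: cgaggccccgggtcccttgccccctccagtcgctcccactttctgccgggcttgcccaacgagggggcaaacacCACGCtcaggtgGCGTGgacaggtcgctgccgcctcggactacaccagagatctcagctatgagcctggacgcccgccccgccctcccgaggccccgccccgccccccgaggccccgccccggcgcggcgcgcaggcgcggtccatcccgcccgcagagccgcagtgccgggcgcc

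These windows are chr17:28576896-28577145 (minus strand) for ALDOC, chr11:18394313-18394562 (plus strand) for LDHA, chrX:78103998-78104247 (plus strand) for PGK1, chr2:74833877-74834126 (plus strand) for HK2 and chr1:42958869-42959118 (minus strand) for SLC2A1. For the genes that were not 2-fold lower they are chr21:44299803-44300052 (plus strand) for PFKL, chr15:72231191-72231440 (minus strand) for PKM and chr20:25247835-25248084 (plus strand) for PYGB. ALDOC and LDHA held 5 matches each, PGK1 and HK2 held 3 each, PYGB held 2, PFKL held 1, and SLC2A1 and PKM held none. Of the lower genes not printed, PDK1 and GBE1 held 2 each and PFKFB4 held 1. Of the other compared genes not printed, SLC16A3 held 3, and ALDOA, PFKFB3, GAPDH, ENO1 and GYS1 held 2 each. HK1, GPI and ENO2 held 1 each, and PFKP, TPI1, PGAM1, PGM1 and PYGL held none. RefSeq promoters were found for 28 of the 32 genes. Among the 8 lower genes, 7 held ACGTG or GCGTG and 6 held ACGTG. Among the 17 other compared genes with a promoter, 11 held either and 5 held ACGTG. Of 14868 promoters searched the same way, 51.0% held either 20.7% held ACGTG and 39.9% held GCGTG. The longer CACGTG was found in 2 of the 8 lower genes, ALDOC and LDHA, in 3 of the other 17, and in 7.79% of all promoters. The RefSeq start of the printed windows lay 2 (PFKL) to 369 bases (ALDOC) from the GENCODE start. Among the other genes counted it lay furthest for SLC16A3 (1212 bases), GAPDH (1337 bases) and PGAM1 (1658 bases). A match describes the letters of this window, and binding was not measured.

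Glucose transport was carried by SLC2A3 and SLC2A1, and SLC2A1 differed more from the control than SLC2A3 did. SLC2A1, which encodes the widely expressed transporter GLUT1, was at 83.4 FPKM in sh#7, 118 FPKM in sh#2 and 228 FPKM in the control. Its level was highest in the control and lowest in sh#7, with differences of -1.44 in sh#7 and -0.94 in sh#2, the lowest of the 28 genes in sh#2 with a pseudocount of 1, though not by plain ratios, where HK1 was lower, and past 2-fold there under either scaling alternative. SLC2A3, which encodes the high-affinity transporter GLUT3, was at 402 FPKM in sh#7, 441 FPKM in sh#2 and 500.0 FPKM in the control, and differed by -0.31 in sh#7 and -0.18 in sh#2. SLC2A14 is a near-identical copy of SLC2A3 and stood at 8.06 FPKM in sh#7, 5.47 FPKM in sh#2 and 6.11 FPKM in the control, and how reads were divided between the pair is uncertain. SLC2A2, which encodes GLUT2, the transporter of the adult hepatocyte, was at 0.246 FPKM in sh#7, 0.0972 FPKM in sh#2 and 1.13 FPKM in the control, which is about 34 fragments in sh#7, 14 in sh#2 and 156 in the control by the estimated depth. The level was low in all 3 libraries, though higher in the control than in both hairpin lines. The mean of 0.49 FPKM was under the limit for a fold change. Within the summed FPKM of these 3 transporters, the share of SLC2A1 was 17.2% in sh#7, 21.2% in sh#2 and 31.2% in the control. SLC2A9, a urate transporter of the same family, was at 7.136 FPKM in sh#7, 12.64 FPKM in sh#2 and 14.98 FPKM in the control, with differences of -0.97 in sh#7 and -0.23 in sh#2. SLC2A4, SLC2A6, SLC2A11 and SLC2A13 differed from the control by -0.16 to 0.36 in sh#7, and SLC2A5 and SLC2A12 stayed under 1 FPKM.

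HK2 was the leading hexokinase gene in all 3 libraries. HK2, the hexokinase typical of muscle and of many tumours, was at 18.3 FPKM in sh#7, 34.4 FPKM in sh#2 and 55.8 FPKM in the control. The differences were -1.56 in sh#7 and -0.68 in sh#2, and the sh#7 value was at rank 100 from the lowest of 11069 genes. HK1, the isoform of most other tissues, was at 0.590 FPKM in sh#7, 0.982 FPKM in sh#2 and 1.92 FPKM in the control. HK1 was just above the limit for comparison with a mean of 1.16 FPKM, and passed it through the control value. Its FPKM in sh#7 was 30.7% of the control (exact 95% interval 23.9 to 38.8) and in sh#2 it was 51.0% (41.7 to 62.1). Its differences were -0.88 in sh#7 and -0.56 in sh#2. The sh#7 value was -1.55 with a pseudocount of 0.1 and -1.70 as a plain log2 ratio, so whether HK1 passed 2-fold depended on the pseudocount. The intervals rest on fragments estimated from FPKM and an annotated length, are approximate, and cover counting error only. The pair kept its proportions, with an HK2 share of 96.9% in sh#7, 97.2% in sh#2 and 96.7% in the control. HKDC1, a further hexokinase, was at 5.997 FPKM in sh#7, 5.397 FPKM in sh#2 and 6.602 FPKM in the control. With HKDC1 counted in, HK2 made up 73.5% in sh#7, 84.4% in sh#2 and 86.7% in the control. HK3 was listed at 0 in all 3 libraries. GPI, which isomerises glucose 6-phosphate, was at 119.6 FPKM in sh#7, 137 FPKM in sh#2 and 154 FPKM in the control, with differences of -0.37 in sh#7 and -0.17 in sh#2.

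Of the phosphofructokinase genes, PFKL and PFKP were lowest in sh#2 and PFKM was lowest in sh#7. PFKL, the liver isoform, was at 109 FPKM in sh#7, 89.3 FPKM in sh#2 and 115 FPKM in the control. The sh#2 library was the lowest and sh#7 lay close to the control, with differences of -0.070 in sh#7 and -0.36 in sh#2. PFKP, the platelet isoform, was at 10.3 FPKM in sh#7, 5.92 FPKM in sh#2 and 8.46 FPKM in the control, highest in sh#7 and lowest in sh#2. In sh#7 its FPKM was 121% of the control (exact 95% interval 111 to 133), and in sh#2 it was 70.0% (63.3 to 77.3). PFKM, the muscle isoform, was at 0.401 FPKM in sh#7, 0.501 FPKM in sh#2 and 0.569 FPKM in the control, under the limit for a fold change. PFKL made up 91.1% in sh#7, 93.3% in sh#2 and 92.7% in the control of the summed FPKM of the 3 genes.

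The PFKFB enzymes make and remove fructose 2,6-bisphosphate, the strongest known activator of phosphofructokinase. Among the compared isoforms PFKFB4 differed most from the control. PFKFB4 was at 7.00 FPKM in sh#7, 15.1 FPKM in sh#2 and 22.0 FPKM in the control. It was among the lowest of the 28 genes in sh#7, with differences of -1.52 in sh#7 and -0.51 in sh#2. PFKFB3, the isoform with the strongest kinase activity, was at 12.0 FPKM in sh#7, 9.47 FPKM in sh#2 and 11.8 FPKM in the control. Its sh#7 and control values were nearly equal, with a difference of 0.018 that became -0.14 when libraries were scaled by median of ratios, and -0.088 when scaled by upper quartile. In sh#2 PFKFB3 was lower, with a difference of -0.29. PFKFB2, known from heart, was at 3.12 FPKM in sh#7, 2.93 FPKM in sh#2 and 2.51 FPKM in the control. It was slightly higher in both hairpin lines than in the control, at 0.23 in sh#7 and 0.16 in sh#2. After median-of-ratios scaling these PFKFB2 differences were 0.10 in sh#7 and 0.077 in sh#2. The leading isoform was PFKFB3 in sh#7 and PFKFB4 in sh#2 and the control. PFKFB4 made up 31.6% in sh#7, 54.9% in sh#2 and 60.5% in the control, and PFKFB3 made up 54.2% in sh#7, 34.4% in sh#2 and 32.5% in the control. PFKFB1, the liver isoform, was under the limit for a fold change, at 0.661 FPKM in sh#7, 0.344 FPKM in sh#2 and 0.322 FPKM in the control.

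**Figure D3:**
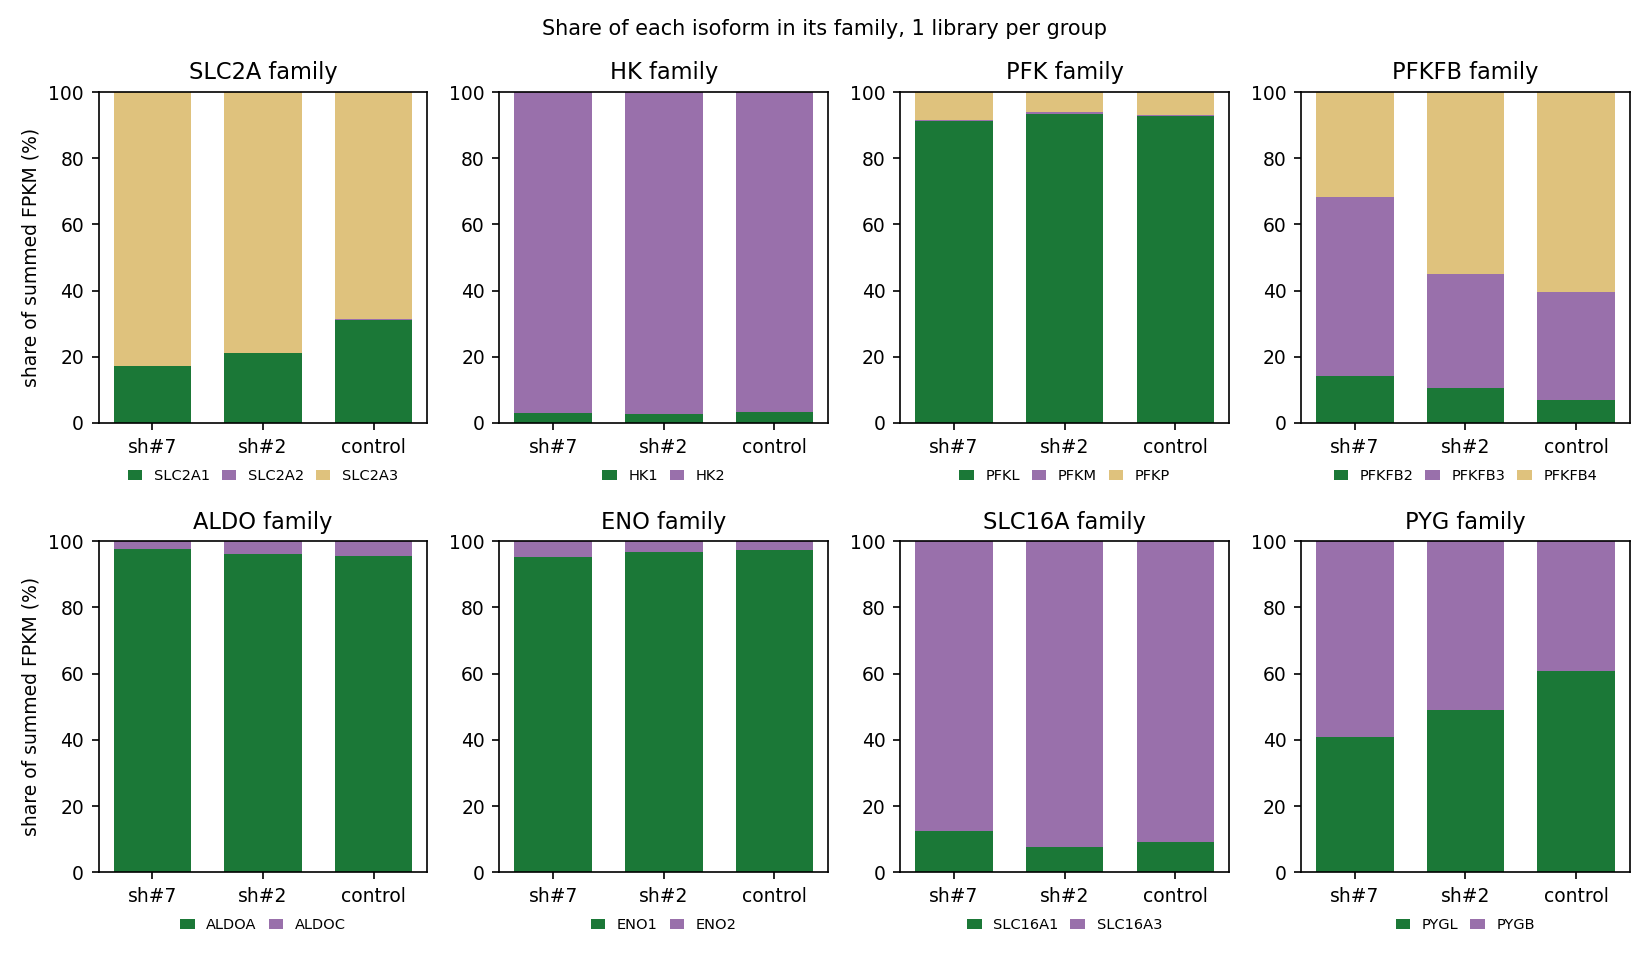
Share (%) of each isoform in the summed FPKM of its family in sh#7, sh#2 and control, for 8 families of the listed genes. PFKFB4 is at 31.6% in sh#7, against 60.5% in the control, and PYGL is at 40.8% in sh#7, against 60.7% in the control. The SLC2A, HK, PFK, ALDO, ENO and SLC16A families keep the same leading isoform in all 3 libraries.

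Aldolase splits fructose 1,6-bisphosphate into trioses, and ALDOC differed more from the control than ALDOA did. ALDOA, the main isoform of muscle and of proliferating cells, was at 1010.1 FPKM in sh#7, 1198 FPKM in sh#2 and 1502 FPKM in the control, with differences of -0.57 in sh#7 and -0.33 in sh#2. ALDOC, the brain isoform, was at 23.2 FPKM in sh#7, 48.1 FPKM in sh#2 and 70.8 FPKM in the control. Its differences were -1.57 in sh#7 and -0.55 in sh#2. In sh#7 this was the lowest of the 28 with a pseudocount of 1, while PFKFB4 was lower with 0.1, and HK1 and PFKFB4 were lower by plain ratios. The share of ALDOC in the summed FPKM of the pair was 2.25% in sh#7, 3.86% in sh#2 and 4.50% in the control. TPI1, which interconverts the trioses, was at 558 FPKM in sh#7, 687 FPKM in sh#2 and 978 FPKM in the control, and its differences were -0.81 in sh#7 and -0.51 in sh#2.

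The steps after the trioses held the most abundant genes. GAPDH, which oxidises glyceraldehyde 3-phosphate, was at 2174 FPKM in sh#7, 3244 FPKM in sh#2 and 3457 FPKM in the control. Its sh#2 value lay close to the control and its sh#7 value was lowest, with differences of -0.67 in sh#7 and -0.092 in sh#2. PGK1, the first ATP-making enzyme of glycolysis, was at 263 FPKM in sh#7, 365 FPKM in sh#2 and 565 FPKM in the control, and differed by -1.10 in sh#7 and -0.63 in sh#2. PGAM1, the phosphoglycerate mutase outside muscle, was at 65.1 FPKM in sh#7, 73.6 FPKM in sh#2 and 77.6 FPKM in the control, with small differences of -0.25 in sh#7 and -0.076 in sh#2. ENO1, the common enolase, was at 1334 FPKM in sh#7, 1632 FPKM in sh#2 and 2343 FPKM in the control, and differed by -0.81 in sh#7 and -0.52 in sh#2. ENO2, the neuronal enolase, was at 65.6 FPKM in sh#7, 54.2 FPKM in sh#2 and 67.2 FPKM in the control. Here sh#7 and the control were nearly equal and sh#2 was lowest, at -0.033 in sh#7 and -0.30 in sh#2, and the ENO2 share of the pair was 4.69% in sh#7, 3.21% in sh#2 and 2.79% in the control. ENO3, the muscle enolase, was at 17.0 FPKM in sh#7, 19.2 FPKM in sh#2 and 11.7 FPKM in the control, higher in both hairpin lines than in the control, with differences of 0.50 in sh#7 and 0.67 in sh#2. PGAM2, the muscle mutase, stayed under 1 FPKM.

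Pyruvate kinase showed the same order as ENO2 and PFKL. The PKM row, written PKM2, was at 941 FPKM in sh#7, 719.8 FPKM in sh#2 and 1012 FPKM in the control, with differences of -0.10 in sh#7 and -0.49 in sh#2. The row covers the whole gene, and the M1 and M2 splice forms were not analysed here. PKLR, the liver and red cell pyruvate kinase gene, was at 4.90 FPKM in sh#7, 8.78 FPKM in sh#2 and 11.1 FPKM in the control, with differences of -1.04 in sh#7 and -0.31 in sh#2, so it was past 2-fold lower in sh#7 where PKM was not. Several of these abundant genes, among them GAPDH, PGK1, PGAM1, ENO1 and LDHA, have near-identical processed pseudogenes, so the division of reads is uncertain for them.

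At the end of the pathway, LDHA and PDK1 were both at least 2-fold lower in sh#7. LDHA, which reduces pyruvate to lactate, was at 587 FPKM in sh#7, 984 FPKM in sh#2 and 1400.4 FPKM in the control, highest in the control and lowest in sh#7. Its differences were -1.25 in sh#7 and -0.51 in sh#2. LDHB, the lactate dehydrogenase subunit of heart, was listed at 0 in all 3 libraries. A 0 in such a table can be a failed estimate and is not read as absence. LDHD, a lactate dehydrogenase for the D form, was at 2.13 FPKM in sh#7, 2.54 FPKM in sh#2 and 3.81 FPKM in the control, and LDHC, known from testis, stayed under 1 FPKM. PDK1, a kinase that switches off pyruvate dehydrogenase, was at 6.25 FPKM in sh#7, 10.3 FPKM in sh#2 and 17.0 FPKM in the control, and differed by -1.31 in sh#7 and -0.67 in sh#2. Its relative PDK2 was at 7.26 FPKM in sh#7, 7.42 FPKM in sh#2 and 7.81 FPKM in the control, with differences of -0.092 in sh#7 and -0.065 in sh#2. PDK3 was at 3.32 FPKM in sh#7, 4.12 FPKM in sh#2 and 4.55 FPKM in the control, with differences of -0.36 in sh#7 and -0.12 in sh#2. PDK1 thus lay above PDK2 in sh#2 and the control and below it in sh#7, and PDK4 stayed under 1 FPKM.

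Of the lactate transporters, SLC16A3 was lower in sh#7 than in sh#2, and SLC16A1 was nearly equal in the hairpin lines. SLC16A3, which encodes MCT4, the lactate exporter of glycolytic cells, was at 317 FPKM in sh#7, 531 FPKM in sh#2 and 560.0 FPKM in the control. Its sh#2 value lay close to the control and its sh#7 value was lower, with differences of -0.82 in sh#7 and -0.077 in sh#2. SLC16A1, which encodes MCT1, was at 45.4 FPKM in sh#7, 44.5 FPKM in sh#2 and 57.2 FPKM in the control, lower in both lines by a similar amount, at -0.33 in sh#7 and -0.36 in sh#2. Between the hairpin lines its difference of 0.029 became -0.027 after median-of-ratios scaling. The share of SLC16A1 in the pair was 12.5% in sh#7, 7.73% in sh#2 and 9.27% in the control. SLC16A4, SLC16A7 and SLC16A8 of the same family stayed under 1 FPKM. BSG, whose protein basigin carries both transporters to the membrane, was at 466 FPKM in sh#7, 533 FPKM in sh#2 and 629 FPKM in the control, and differed by -0.43 in sh#7 and -0.24 in sh#2.

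Of the genes that build glycogen, GBE1 was furthest from the control. PGM1, which links glucose 6-phosphate with glucose 1-phosphate, was at 46.0 FPKM in sh#7, 75.9 FPKM in sh#2 and 88.2 FPKM in the control, with differences of -0.92 in sh#7 and -0.22 in sh#2, and it passed 2-fold in sh#7 under both scalings, at -1.10 and -1.04. Its relative PGM3, which acts on sugars for glycoproteins, was at 19.8 FPKM in sh#7, 33.1 FPKM in sh#2 and 35.5 FPKM in the control. PGM2 had differences of 0.27 in sh#7 and 0.44 in sh#2. PGM2L1 had the lowest level of these relatives, at 2.21 FPKM in sh#7, 0.980 FPKM in sh#2 and 0.706 FPKM in the control. PGM2L1 was higher in sh#7, with differences of 0.91 in sh#7 and 0.21 in sh#2. The sh#7 difference was 0.82 after median-of-ratios scaling, and PGM2L1 passed the limit for comparison through its sh#7 value. GYS1, the glycogen synthase outside liver, was at 14.0 FPKM in sh#7, 19.7 FPKM in sh#2 and 20.9 FPKM in the control, with differences of -0.55 in sh#7 and -0.081 in sh#2. GYS2, the liver synthase, was at 0.00743 FPKM in sh#7, about 1 estimated fragment, and was listed at 0 in the other two libraries. GBE1, the branching enzyme, was at 13.6 FPKM in sh#7, 23.6 FPKM in sh#2 and 29.8 FPKM in the control, and was at least 2-fold lower in sh#7, at -1.08 in sh#7 and -0.33 in sh#2.

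The leading glycogen phosphorylase, the enzyme that releases glucose from glycogen, was not the same in all libraries. PYGL, the liver phosphorylase, was at 37.8 FPKM in sh#7, 43.5 FPKM in sh#2 and 64.8 FPKM in the control, with differences of -0.76 in sh#7 and -0.56 in sh#2. PYGB, the brain phosphorylase, was at 54.8 FPKM in sh#7, 45.3 FPKM in sh#2 and 42.0 FPKM in the control. Its level was highest in sh#7, with a difference of 0.38, and the difference of 0.11 in sh#2 became -0.0095 after median-of-ratios scaling. PYGL made up 40.8% in sh#7, 49.0% in sh#2 and 60.7% in the control. PYGB thus led in sh#7 and PYGL led in the control. In sh#2 they were nearly equal, with PYGB slightly higher. PYGM, the muscle phosphorylase, stayed under 1 FPKM in every library.

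**Figure D4:**
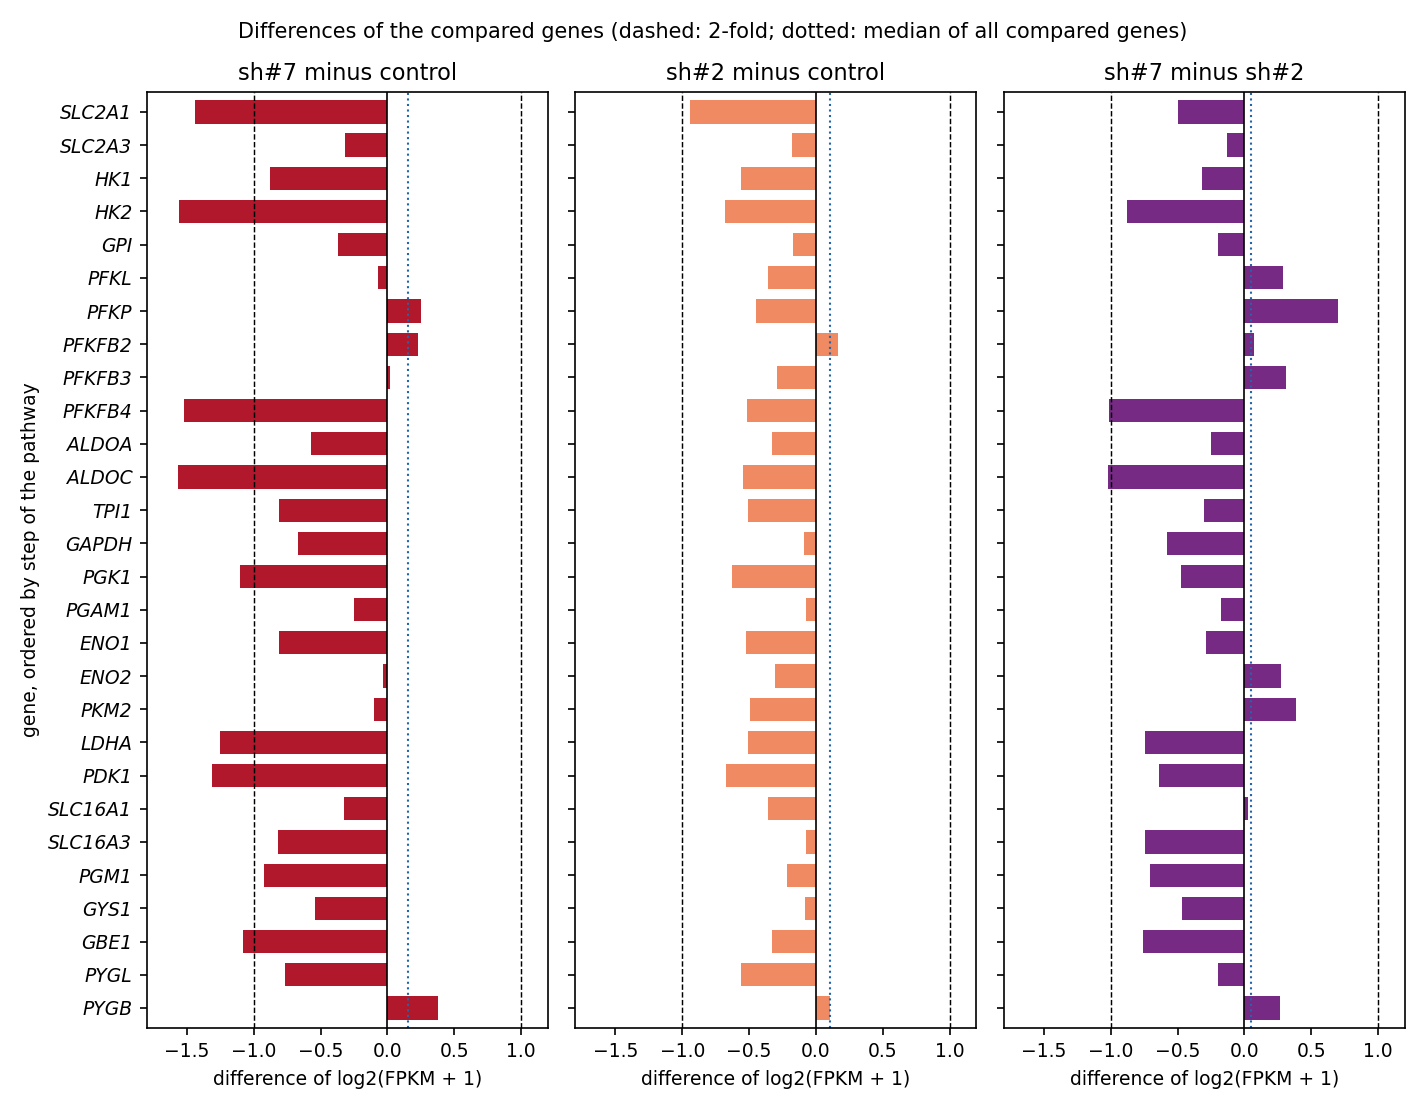
Difference of log2(FPKM + 1) for the 28 compared genes, ordered by step of the pathway, for sh#7 minus control, sh#2 minus control and sh#7 minus sh#2. Dashed lines mark 2-fold and the dotted line marks the median of all compared genes. In the first panel 8 bars pass 2-fold, 0 in the second and 2 in the third, while PFKL, PFKP, PFKFB2, PFKFB3, ENO2, PKM2, SLC16A1 and PYGB point right in the third panel, SLC16A1 by an amount that changes sign under median-of-ratios scaling.

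Set directly against sh#2, the sh#7 line had 2 of 28 genes at least 2-fold lower, against 1.52% of all compared genes. These were ALDOC at -1.02 and PFKFB4 at -1.01, both close to the 2-fold limit. None was 2-fold higher, against 1.45% of all compared genes. At 1.5-fold, 8 of 28 were lower, against 4.55%, and PFKP was higher at 0.70, which is 1 of 28 against 5.14%. The 8 were HK2, PFKFB4, ALDOC, LDHA, PDK1, SLC16A3, PGM1 and GBE1. PKM2, PFKFB3, PFKL, ENO2 and PYGB were higher in sh#7 than in sh#2 by 0.27 to 0.39. The median difference of the 28 genes was -0.30, against 0.047 for all compared genes. Of any size, 20 of 28 were lower in sh#7 than in sh#2, against 42.7% of all compared genes, both as deposited.

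Other genes of these pathways differed less. Of 67 further genes of glycolysis, pyruvate entry, sugar transport and glycogen, 48 were compared, and 3 were at least 2-fold lower in sh#7 than in the control, against 2.48% of all compared genes. None of the 48 was 2-fold higher in sh#7, against 2.35% of all compared genes. In sh#2 none was 2-fold lower, against 0.723%, or higher, against 0.506%. With a pseudocount of 0.1 the counts were 4 lower and 2 higher in sh#7, and 1 lower and none higher in sh#2. The shares of all compared genes given here are for a pseudocount of 1, so the counts at 0.1 have none beside them. The median difference of the 48 genes was -0.027 in sh#7 and 0.039 in sh#2. The 3 genes lower in sh#7 with a pseudocount of 1 were PKLR, described above, SLC2A10 and MPC1. SLC2A10, a transporter of the same family as SLC2A1, was at 2.54 FPKM in sh#7, 4.26 FPKM in sh#2 and 8.74 FPKM in the control, highest in the control. MPC1, a subunit of the mitochondrial pyruvate carrier that the table lists as BRP44L, was at 49.4 FPKM in sh#7, 129.8 FPKM in sh#2 and 103 FPKM in the control, lowest in sh#7 and highest in sh#2. Its partner MPC2, listed as BRP44, was at 39.1 FPKM in sh#7, 48.1 FPKM in sh#2 and 34.4 FPKM in the control. SLC2A8, an intracellular glucose transporter, was at 19.5 FPKM in sh#7, 17.2 FPKM in sh#2 and 9.66 FPKM in the control, and differed by 0.94 in sh#7 and 0.77 in sh#2.

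Genes of the pentose phosphate pathway, which branches off at glucose 6-phosphate and makes NADPH and ribose, were not lower as a group. Of 8 listed genes, 7 were compared. Their median difference was 0.30 in sh#7 and 0.18 in sh#2, where the medians of all compared genes were 0.16 and 0.10. Relative to all, the 7 lay at 0.14 in sh#7 and 0.076 in sh#2. TALDO1, a transaldolase, was at 224 FPKM in sh#7, 199 FPKM in sh#2 and 168 FPKM in the control. It was higher in both hairpin lines than in the control, with differences of 0.42 in sh#7 and 0.25 in sh#2. After median-of-ratios scaling these TALDO1 differences were 0.24 in sh#7 and 0.13 in sh#2. PGD and TKT, other abundant enzymes of the branch, differed from the control by -0.17 and -0.028 in sh#7.

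Of 6 regulators tied to these genes, HIF1A was higher in the hairpin lines and TXNIP was lower. HIF1A, the oxygen-regulated subunit of hypoxia-inducible factor 1, was at 59.8 FPKM in sh#7, 38.3 FPKM in sh#2 and 29.5 FPKM in the control. Its differences were 0.997 in sh#7 and 0.37 in sh#2. The sh#7 value was just under 2-fold with the pseudocount of 1, and the plain ratio was just past it. After median-of-ratios scaling the sh#7 difference of HIF1A was 0.83. EPAS1, the corresponding subunit of factor 2, was at 73.0 FPKM in sh#7, 61.0 FPKM in sh#2 and 54.7 FPKM in the control, with differences of 0.41 in sh#7 and 0.16 in sh#2. ARNT, the partner of both, was at 11.1 FPKM in sh#7, 9.25 FPKM in sh#2 and 8.81 FPKM in the control. Its differences were 0.31 in sh#7 and 0.063 in sh#2, and the sh#2 value became -0.044 after median-of-ratios scaling. All 3 were highest in sh#7. MYC was at 83.02 FPKM in sh#7, 73.71 FPKM in sh#2 and 78.24 FPKM in the control. MLXIPL, which encodes ChREBP, was at 20.03 FPKM in sh#7, 20.72 FPKM in sh#2 and 20.15 FPKM in the control, nearly the same in all libraries. TXNIP, a ChREBP target that restrains glucose uptake, was at 6.47 FPKM in sh#7, 20.8 FPKM in sh#2 and 37.5 FPKM in the control, with differences of -2.37 in sh#7 and -0.82 in sh#2. These are RNA levels, and the activity of the factors was not measured.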

How the data were processed

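Total RNA of 3 Hep-G2 cultures was sequenced, with 1 library each for the FTO hairpins sh#7 and sh#2 and for the control hairpin. The authors deposited 1 table of FPKM values per gene. Build hg19 and the tools Cufflinks 2.2.1, STAR 2.4.0j and HTSeq stand in the submitters' processing notes, and what each tool was used for was not settled here. Columns were matched to samples by title. Differences are of log2(FPKM + 1), a pseudocount of 1, where a gene averaged 1 FPKM or more; with 1 library per group there is no spread to test against, so no p-value is given. FPKM divides by the mapped total, so abundant genes that differ shift all others; the median difference of all compared genes was 0.16 in sh#7 and 0.10 in sh#2. Depth was estimated from the steps that single fragments leave in low FPKM values of genes with 1 annotated transcript in GENCODE 29, less 150 bases of length. Exact (Clopper-Pearson) 95% intervals on estimated fragments cover counting error only. Isoform shares are shares of summed FPKM within a library. The named genes were all listed members, FTO, every isoform of their families, further pathway genes past 2-fold or among the 6 highest, 6 regulators and the cell type markers; MPC2 and ACTB were chosen after their values were seen. Some genes that this rule names are not reported here. Members and lists were chosen with earlier results of these data known. The differences, the 2-fold rule and the median-of-ratios scaling were tested on simulated data, and the other calculations were not. Alternatives were another pseudocount, plain ratios, other filters, 2 scalings, a 1.5-fold threshold and wider isoform families. Python 3.11.15, pandas 2.3.3 and SciPy 1.17.1 were used.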

Additional observations from a re-analysis of the deposited data

Results flagged for a closer look

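PFKP and PFKFB3 lay on opposite sides of the control in the hairpin lines, a difference that was not tested because each line gave 1 library. For PFKP the sh#7 difference was 0.25 and the sh#2 difference -0.45. For PFKFB3 the sh#7 difference was 0.018, which turned negative under both scalings, and the sh#2 difference was -0.29.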

How the results depend on the processing

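No paired analysis was possible because there was a single library in each group, which also left no replicate to leave out. The count of 8 genes at least 2-fold lower in sh#7 was 8 or 9 under every other pseudocount, filter and scaling run. HK1 was added by the pseudocount of 0.1 and by plain ratios, and PGM1 by both scalings. HK1 had passed the limit for comparison only through its control value, where it was highest. Median-of-ratios and upper-quartile scaling each put 1 gene, SLC2A1, past 2-fold lower in sh#2, against 0 as deposited. A 1.5-fold threshold gave 15 lower in sh#7 and 4 in sh#2 against the control, and 8 lower and 1 higher in sh#7 against sh#2. The median of the 28 genes, taken relative to that of all genes, was -0.87 in sh#7, and -0.90 with a pseudocount of 0.1, -0.90 with plain ratios, -0.62 with no filter on low values, -0.89 with median-of-ratios scaling and -0.89 with upper-quartile scaling. In sh#2 it was -0.46, and -0.48 with a pseudocount of 0.1, -0.48 with plain ratios, -0.34 with no filter on low values, -0.47 with median-of-ratios scaling and -0.47 with upper-quartile scaling. For sh#7 against sh#2 it was -0.34, and -0.35 with a pseudocount of 0.1, -0.35 with plain ratios, -0.22 with no filter on low values and -0.33 with a minimum mean of 5 FPKM. The FTO differences of -1.50 in sh#7, -0.67 in sh#2 and -0.82 between them were -1.78, -0.76 and -1.02 at pseudocount 0.1, and -1.64 and -0.78 against the control under median-of-ratios scaling. Among the other pathway genes, a pseudocount of 0.1 gave 4 lower and 2 higher in sh#7 than the control, and 1 lower in sh#2. In sh#7 against sh#2 it gave 1 lower and 1 higher. No share of all compared genes is given at that pseudocount. Families widened to all listed isoforms moved the shares of SLC2A1 to 15.4% in sh#7, 19.2% in sh#2 and 29.05% in the control, SLC2A3 to 74.3% in sh#7, 71.6% in sh#2 and 63.8% in the control, HK1 to 2.37% in sh#7, HK2 to 73.5% in sh#7, 84.4% in sh#2 and 86.7% in the control, PFKFB3 to 52.7% in sh#7, ENO1 to 94.2% in sh#7, 95.7% in sh#2 and 96.7% in the control. Of 84 differences of single genes, 70 left their counting interval under median-of-ratios scaling, 54 under upper-quartile scaling, 8 with plain ratios and 6 with a pseudocount of 0.1; none past 2-fold changed sign. Depth limits SLC2A2, PFKM, GYS2 and HK1 most; the cause of the moves was not tested.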

Other observations

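GAPDH and ACTB, an actin gene chosen here after its values were seen, are often used as reference genes for RNA measurements, and they differed in opposite directions. ACTB was at 1653 FPKM in sh#7, 1523 FPKM in sh#2 and 1157 FPKM in the control, while GAPDH was at 2174 FPKM in sh#7, 3244 FPKM in sh#2 and 3457 FPKM in the control. The ratio of GAPDH to ACTB was 1.32 in sh#7, 2.13 in sh#2 and 2.99 in the control. Set against GAPDH, LDHA was at 0.270 in sh#7, 0.303 in sh#2 and 0.405 in the control. Set against ACTB, LDHA was at 0.355 in sh#7, 0.646 in sh#2 and 1.21 in the control. LDHA was lowest in sh#7 by both ratios, but the size of the gap to the control depended on the gene it was set against.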
